A study of Mus musculus with 8 samples.

Results

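The genes described here encode the enzymes, sugar and lactate transporters and direct regulators of glycolysis and of the pentose phosphate pathway, as a list of 36 mouse genes. A gene was followed through the probe sets (groups of short probes on the array) that the platform annotation gives that symbol alone, and of these through the one with the highest mean over the 8 arrays. That rule found 32 of the 36, among 18193 genes on the array. All 32 also passed the filter on low values, which kept 13983 genes. Gapdh had that single symbol only on the array's control probe sets, which were left out of the test and are given separately at the end. Gpi1, Eno1 and G6pdx were not analysed here.

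Messenger RNA was profiled in CD4+ T cells, the helper lineage, taken from BALB/c mice into primary culture. There were 4 groups of 2 Affymetrix arrays. Stimulated cells with dorsomorphin had antibodies to CD3 and CD28, which engage the antigen receptor of T cells and its costimulatory partner, for 1 h and then 4 µM dorsomorphin for 6 h. Stimulated cells had the antibodies followed by the solvent DMSO, unstimulated cells with dorsomorphin had the compound without antibodies, and control cells had DMSO without antibodies. Dorsomorphin blocks type I receptors for bone morphogenetic proteins and also the energy-sensing kinase AMPK, so an effect of the compound cannot be assigned to either target. Nothing in the labels tells whether the 2 arrays of a group were separate animals or cultures. Each p-value weighs a difference against the spread between the 2 arrays of a group, pooled over all 4 groups. That spread may be only technical.

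Glycolysis splits glucose into pyruvate and yields ATP without oxygen. Activated T cells are known for taking up more glucose and for turning much of the pyruvate into lactate, which they export, while the pentose phosphate pathway draws on the same sugar phosphates to make NADPH and the ribose of nucleotides. The transcription factors Myc and HIF-1, whose oxygen-regulated subunit is encoded by Hif1a, are known to switch on many genes of these routes.

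Both factors recognise short DNA words that overlap, so the 250 bases before the most upstream annotated start of each gene were searched. RefSeq promoters of build GRCm38.p6 matched 35 of the 36 genes. Of these, 5 are printed 5′ to 3′ on the strand of the gene, because their genes carried the largest rises with stimulation in the list, the lactate step, or the largest fall. Capitals mark CACGTG (the E-box of Myc), ACGTG (the core of the HIF site) and GCGTG (its other core) on either strand.
Hk2, chr6:82774455-82774704, minus strand: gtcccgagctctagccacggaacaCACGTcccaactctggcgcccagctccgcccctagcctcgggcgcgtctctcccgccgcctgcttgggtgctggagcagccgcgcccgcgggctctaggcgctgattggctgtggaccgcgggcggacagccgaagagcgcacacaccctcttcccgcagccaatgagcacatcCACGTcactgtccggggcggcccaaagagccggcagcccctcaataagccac
Slc16a1, chr3:104638414-104638663, plus strand: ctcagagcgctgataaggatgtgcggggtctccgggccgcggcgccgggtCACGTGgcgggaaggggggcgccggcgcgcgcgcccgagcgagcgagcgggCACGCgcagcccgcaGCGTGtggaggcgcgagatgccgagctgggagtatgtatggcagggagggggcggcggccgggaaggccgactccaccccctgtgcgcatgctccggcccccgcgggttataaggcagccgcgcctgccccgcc
Pgam1, chr19:41911621-41911870, plus strand: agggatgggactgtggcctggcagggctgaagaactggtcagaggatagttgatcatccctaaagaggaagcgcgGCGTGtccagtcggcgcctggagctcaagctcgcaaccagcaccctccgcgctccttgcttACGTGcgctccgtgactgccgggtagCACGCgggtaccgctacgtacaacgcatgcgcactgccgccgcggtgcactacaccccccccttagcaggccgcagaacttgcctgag
Ldha, chr7:46845554-46845803, plus strand: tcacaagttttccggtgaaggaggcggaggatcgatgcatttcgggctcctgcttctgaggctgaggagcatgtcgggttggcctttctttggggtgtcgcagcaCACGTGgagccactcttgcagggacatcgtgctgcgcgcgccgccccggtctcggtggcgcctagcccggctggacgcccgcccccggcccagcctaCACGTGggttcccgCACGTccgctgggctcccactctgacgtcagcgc
Pdk2, chr11:95041372-95041621, minus strand: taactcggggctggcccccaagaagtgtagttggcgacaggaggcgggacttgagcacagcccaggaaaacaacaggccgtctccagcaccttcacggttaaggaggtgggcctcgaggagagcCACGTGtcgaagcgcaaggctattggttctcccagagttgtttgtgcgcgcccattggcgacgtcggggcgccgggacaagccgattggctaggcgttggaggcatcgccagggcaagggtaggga
CACGTG, which holds ACGTG on both strands, was present in 5 of the 35 promoters (14.3%) and in 6.04% of all 27025 mouse promoters searched the same way. ACGTG was present in 13 of 35 (37.1%), against 16.5% of all promoters, and GCGTG in 19 of 35 (54.3%), against 28.3%. Within the list, CACGTG was present in 3 of 10 genes that rose with stimulation and 2 of 21 tested genes that did not, ACGTG in 6 of 10 and 7 of 21, and GCGTG in 4 of 10 and 12 of 21. Ldha held CACGTG at positions -145 and -48 from the start, Slc16a1 at -200, and Pdk2, which fell with stimulation, at -126. A match describes these letters and is neither a binding site nor a cause.

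Across the arrays, median signals ran from 45.4 to 74.5, and the correlation between the 2 arrays of a group was 0.937 to 0.952 over the tested genes. The 10 T cell markers tested, which include subunits of the CD3 complex, were each above the floor of log2 5.22 on some array. Their summed signals were 43700 to 50000 in stimulated cells with dorsomorphin, 65600 to 69200 in stimulated cells, 29800 to 41100 in unstimulated cells with dorsomorphin and 90700 to 92000 in control cells. Of the 10, 6 fell with dorsomorphin alone, 1 fell with stimulation, and with dorsomorphin in stimulated cells 2 fell and 1 rose. Among all tested genes, 11.1% fell with dorsomorphin alone and 14.4% with stimulation. With dorsomorphin in stimulated cells 12.4% of all fell and 9.71% rose. The counts of the short marker lists here are to be read against these shares. Myeloid and dendritic cell markers summed to 1160 to 1660, 1270 to 2380, 1430 to 1650 and 3950 to 4950 in the same order of groups, and 3 of 11 fell with stimulation, 3 with dorsomorphin alone and 1 with dorsomorphin in stimulated cells. B cell markers summed to 507 to 551, 375 to 482, 265 to 341 and 630 to 687, with Ebf1 under the floor on every array, and of 7 tested 1 fell with stimulation, 1 fell with dorsomorphin alone and 1 rose with dorsomorphin in stimulated cells. CD8 and NK cell markers summed to 564 to 858, 723 to 1100, 509 to 804 and 1630 to 2090, and of 7 tested 1 fell with stimulation, 1 fell with dorsomorphin alone, and with dorsomorphin in stimulated cells 1 fell and 1 rose. The part of these shifts in the results below was not tested, and in RNA from whole cultures fewer cells of a type and less RNA per cell cannot be told apart.

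**Figure D1:**
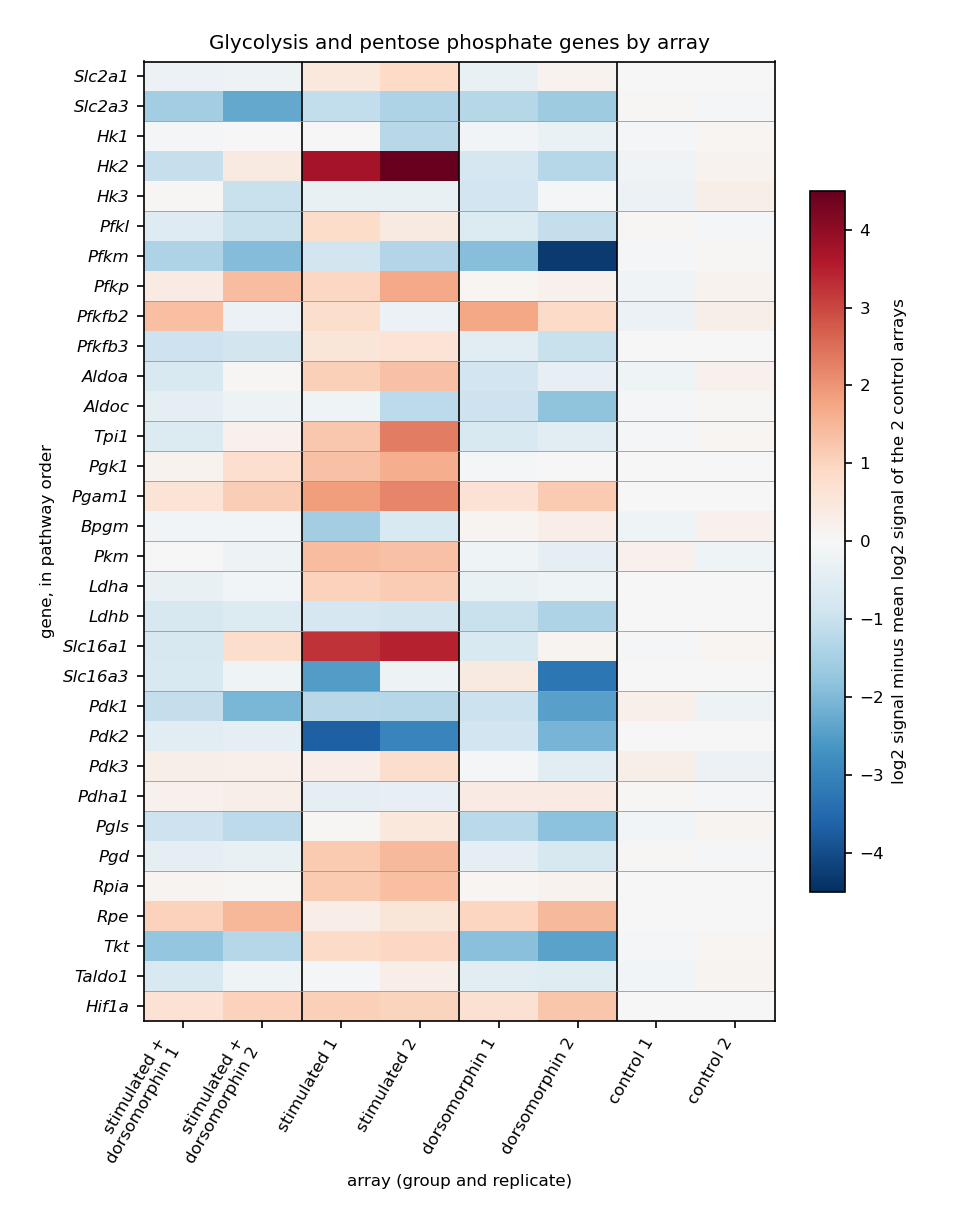
The 32 tested genes (rows, in pathway order) on each of the 8 arrays (columns, by group); the colour is the log2 signal minus the gene's mean over the 2 control arrays, since levels of different probe sets cannot be compared. Hk2 and Slc16a1 stand highest on the 2 stimulated arrays and Pdk2 lowest on them.

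Stimulation raised glycolytic genes at the hexokinase step and at steps from triose phosphate isomerase to lactate export. No phosphofructokinase or aldolase gene passed on its brightest probe set. Set against control cells, stimulated cells had higher signals for 10 of the 32 genes and lower signals for 2. Among all tested genes 8.98% rose and 14.4% fell, 23.4% together (limma, adjusted p under 0.05, Benjamini-Hochberg over 13983 genes). The median log2 fold was 0.56 for the 32 genes and -0.27 for all tested genes. Genes that rose were Hk2, Tpi1, Pgk1, Pgam1, Pkm, Ldha and Slc16a1 of glycolysis, Pgd and Rpia of the pentose route, and the regulator Hif1a. Those that fell were Pdk2 and Slc2a3. The count was 10 or 11 without any 1 array other than 3: it was 0 without control replicate 1, 0 without control replicate 2 and 1 without stimulated replicate 2. At an unadjusted p under 0.05, 13 genes passed without either control array. Slc2a3, Tpi1 and Hif1a no longer passed with arrays centred on their medians, nor with no filter on low values.

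Dorsomorphin given to stimulated cells lowered genes from hexokinase to lactate export and in both arms of the pentose route. Compared with stimulated cells, stimulated cells with dorsomorphin had lower signals for 13 of 32 genes and a higher signal for 1, Pdk2. For all tested genes the shares were 12.4% lower and 9.71% higher, 22.1% together. The medians of the log2 fold were -0.64 over the 32 genes and 0.07 over all tested genes. Of the 10 genes that rose with stimulation, 8 were among the 13, all but Pgk1 and Hif1a on their brightest probe sets. Pgk1 and Hif1a each had another probe set that passed as lower. Both comparisons use the same 2 stimulated arrays, so the count of 8 is no independent evidence. Another 5 (Pfkl, Pfkfb3, Aldoa, Pgls and Tkt) fell with the compound in stimulated cells without having passed for stimulation on their brightest probe set. Some, not all, of the other probe sets of Aldoa and Tkt did pass for stimulation. Leaving out 1 array gave 4 to 13 genes: 4 without stimulated replicate 2, 4 without replicate 1 of the stimulated cells with dorsomorphin, and 9 without either control array. Aldoa, Tpi1 and Pgam1 no longer passed with arrays centred on their medians, nor with no filter on low values, which also ended the call of Pgls.

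Dorsomorphin was also given to unstimulated cells. Against control cells, 5 of 32 were lower (Slc2a3, Pfkm, Ldhb, Pgls and Tkt) and 1, Rpe, was higher, where 11.1% of all tested genes were lower and 1.92% higher, 13.1% together. The median log2 fold was -0.50 for the 32 genes and -0.24 for all tested genes. With arrays centred on their medians, 0 were higher and 1 was lower, and with cyclic loess 0 were higher and 5 lower. Tkt alone of the 6 passed both with that centring and with no filter on low values. The count was 0 without control replicate 1, control replicate 2 or dorsomorphin replicate 2, with 6, 7 and 6 genes at an unadjusted p under 0.05 (limma). It was 3 without any single array of either stimulated group.

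**Figure D2:**
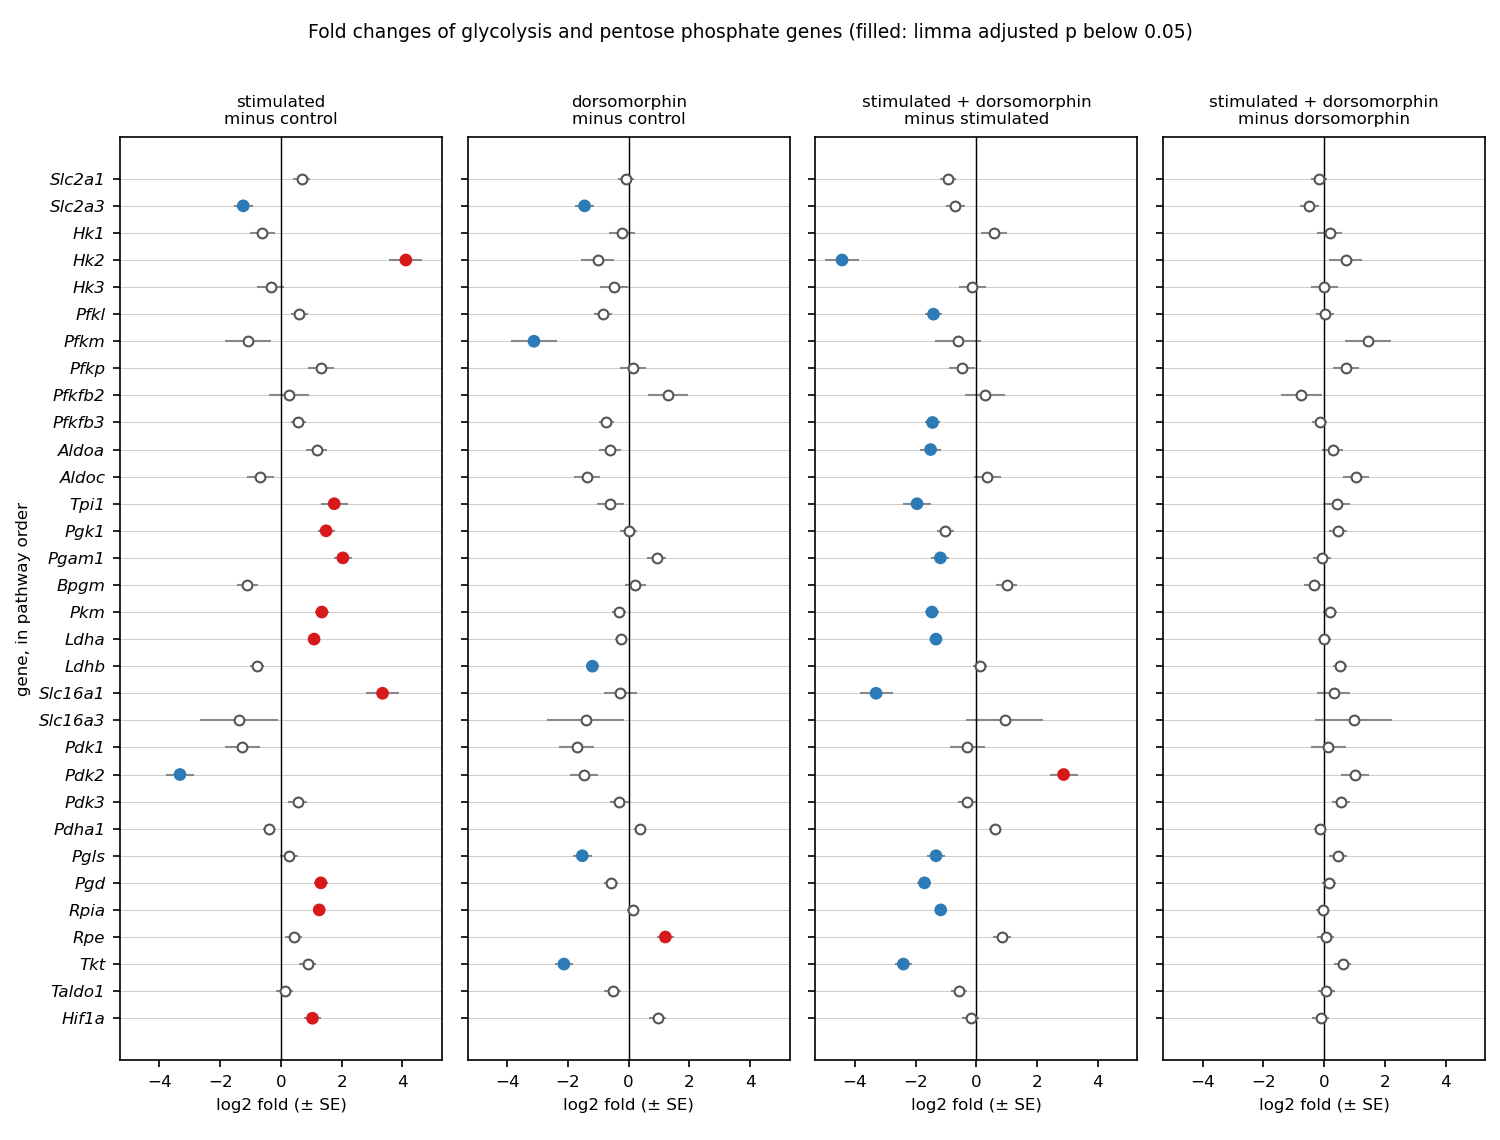
Log2 fold with its standard error for each of the 32 genes in 4 comparisons, genes in pathway order; filled points passed the adjusted threshold of 0.05, red where higher and blue where lower. Hk2 and Slc16a1 lie farthest to the right for stimulation and farthest to the left for dorsomorphin in stimulated cells, Pdk2 does the reverse, and no point is filled for stimulation in the presence of dorsomorphin.

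Glucose enters T cells through facilitative transporters. Slc2a1 encodes GLUT1, the transporter known to be brought to the surface on activation, and had log2 signals of 10.53 and 10.57 in stimulated cells with dorsomorphin, 11.28 and 11.69 in stimulated cells, 10.47 and 10.95 in unstimulated cells with dorsomorphin and 10.79 and 10.82 in control cells. The stimulated arrays were the highest, but neither the difference from control cells (log2 fold 0.68 ± 0.27 SE, adjusted p = 0.12) nor that made by dorsomorphin in stimulated cells (-0.94 ± 0.27, adjusted p = 0.056) passed. Slc2a3, which encodes the high-affinity transporter GLUT3, had 10.02 and 9.26 in stimulated cells with dorsomorphin, 10.47 and 10.20 in stimulated cells, 10.29 and 9.96 in unstimulated cells with dorsomorphin and 11.62 and 11.53 in control cells. Control arrays were highest, with no overlap with any other group. It fell with stimulation (log2 fold -1.24 ± 0.32, adjusted p = 0.0405) and with dorsomorphin alone (-1.45 ± 0.32, adjusted p = 0.0395). Its other tested probe set gave -1.16 and -1.48 (limma adjusted p = 0.0941 and 0.0669 over all probe sets). Probe sets of Slc2a3 that failed the filter on low values also enter the mean given next. Each call held in 9 of 19 alternatives, and with the mean of its probe sets the values were -0.84 (adjusted p = 0.402) and -0.70 (adjusted p = 0.528).

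Hexokinases trap glucose in the cell as its phosphate, and the isoforms behaved differently. Hk2, the inducible isoform, had log2 signals of 5.62 and 7.08 in stimulated cells with dorsomorphin, 10.40 and 11.15 in stimulated cells, 5.91 and 5.38 in unstimulated cells with dorsomorphin and 6.49 and 6.83 in control cells. Only the 2 stimulated arrays were high, more than 3 log2 units above every other array. Stimulation raised it 17.3-fold (log2 fold 4.11 ± 0.55, adjusted p = 0.0107), and stimulated cells with dorsomorphin were 21.4-fold lower than stimulated cells (-4.42 ± 0.55, adjusted p = 0.0073). Hk1, the constitutive isoform, had 10.92 and 11.05, 11.03 and 9.78, 10.89 and 10.71 and 10.94 and 11.10 in the same order of groups and passed in no comparison. Stimulated replicate 2 was its one low array. Hk3 ranged from 5.83 to 7.08 and also passed in none.

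Phosphofructokinase commits the sugar to glycolysis. Pfkl, the liver-type subunit, had log2 signals of 8.32 and 7.89 in stimulated cells with dorsomorphin, 9.73 and 9.30 in stimulated cells, 8.29 and 7.84 in unstimulated cells with dorsomorphin and 8.97 and 8.85 in control cells. It was lower with dorsomorphin in stimulated cells (-1.41 ± 0.29, adjusted p = 0.0238), although another of its probe sets gave 1.24 (adjusted p = 0.0737) and the mean of its probe sets -0.36 (adjusted p = 0.49). The muscle-type subunit, Pfkm, had 7.36 and 6.78, 7.89 and 7.42, 6.82 and 4.42 and 8.67 and 8.80 in that order of groups. Dorsomorphin replicate 2 was under the floor, and the fall in unstimulated cells (-3.12 ± 0.76, adjusted p = 0.0497) rests in part on it. Pfkp, the platelet-type subunit, had 11.05 and 12.07 in stimulated cells with dorsomorphin, 11.62 and 12.41 in stimulated cells, 10.80 and 10.88 in unstimulated cells with dorsomorphin and 10.54 and 10.85 in control cells. Both stimulated groups were above both unstimulated groups, yet stimulation gave 1.32 ± 0.43 with an adjusted p of 0.0757. When every probe set was tested with limma, its second gave 1.59 with 0.0321 and its dimmest 0.97 with 0.183.

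The enzymes Pfkfb2 and Pfkfb3 make and break the fructose bisphosphate that activates phosphofructokinase. Pfkfb3 had 7.96 and 8.09 in stimulated cells with dorsomorphin, 9.43 and 9.50 in stimulated cells, 8.42 and 7.90 in unstimulated cells with dorsomorphin and 8.91 and 8.89 in control cells. The stimulated arrays were highest, both dorsomorphin groups lowest, and the compound lowered it in stimulated cells by 2.72-fold (log2 fold -1.44 ± 0.25, adjusted p = 0.0145). Its other tested probe set gave -0.36 (adjusted p = 0.744), and the mean of its probe sets -0.90 (adjusted p = 0.175). Pfkfb2 ranged from 5.002 to 7.01 on its brightest probe set and passed in no comparison on it. Its probe sets disagreed in sign (stimulation log2 folds of -1.28, 0.26 and 1.59). When all were tested with limma, the one with 1.59 passed for stimulation (adjusted p = 0.046) and for dorsomorphin alone (0.0406). Both control arrays were under the floor on that probe set, so its sizes are uncertain.

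Aldolase and triose phosphate isomerase split the hexose into interconvertible trioses. Aldoa, the main aldolase, had 12.18 and 12.93 in stimulated cells with dorsomorphin, 13.94 and 14.18 in stimulated cells, 12.03 and 12.49 in unstimulated cells with dorsomorphin and 12.67 and 13.08 in control cells. It was lower with dorsomorphin in stimulated cells (-1.51 ± 0.35, adjusted p = 0.032), and stimulation gave 1.18 ± 0.35 with an adjusted p of 0.0588. Of its other probe sets, 2 gave 1.45 (adjusted p = 0.03) and 1.30 (0.0265) for stimulation when all were tested with limma. Another 2 did not pass, at 1.30 (0.0789) and 0.20 (0.57). The brain-type Aldoc ranged from 4.85 to 6.72 and passed in none. Tpi1 had 9.03 and 9.85, 10.85 and 11.94, 8.94 and 9.12 and 9.56 and 9.72 in the same order of groups, with the stimulated arrays above all others. It rose with stimulation (1.75 ± 0.45, adjusted p = 0.0395) and was lower by 3.87-fold with dorsomorphin in stimulated cells (-1.95 ± 0.45, adjusted p = 0.0307). The brightest probe sets of Aldoa and Tpi1, like those of Pgd, Tkt and Hk3, are of a type that can also match other sequences.

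Phosphoglycerate kinase makes ATP, and phosphoglycerate mutase passes the product on. Pgk1 had log2 signals of 12.52 and 13.14 in stimulated cells with dorsomorphin, 13.69 and 14.03 in stimulated cells, 12.34 and 12.40 in unstimulated cells with dorsomorphin and 12.34 and 12.40 in control cells. It rose 2.80-fold with stimulation (1.49 ± 0.28, adjusted p = 0.0197), and dorsomorphin in stimulated cells gave -1.03 ± 0.28 with an adjusted p of 0.0502. When all probe sets were tested with limma, its dimmest gave -2.13 with 0.0329 for dorsomorphin in stimulated cells. Its second gave -1.26 with 0.0502. Both are of the type that can also match other sequences. Pgam1 had 11.68 and 12.16, 12.93 and 13.28, 11.72 and 12.25 and 11.06 and 11.07 in that order, with control arrays lowest. Stimulation raised it 4.11-fold (2.04 ± 0.30, adjusted p = 0.0122), dorsomorphin lowered it in stimulated cells (-1.18 ± 0.30, adjusted p = 0.0398), and in unstimulated cells the compound gave 0.92 ± 0.30 with an adjusted p of 0.098. Bpgm, which makes the bisphosphoglycerate best known from red cells, had 9.98 and 9.98, 8.54 and 9.41, 10.23 and 10.38 and 9.88 and 10.30 and passed in none. Erythroid and platelet markers summed to 828 to 1120, 557 to 649, 759 to 1610 and 1040 to 1760 in the same order, and 0 of 10 passed (limma, these 3 comparisons). Of those 10, Alas2, Slc4a1, Rhag and Hemgn, red cell genes, were higher on replicate 2 than on replicate 1 in all 4 groups. The platelet genes Pf4, Itga2b and Gp9 were lower on replicate 2 in all 4, and the red cell genes Klf1 and Epb42 were mixed. Alas2 differed by 2.77 to 7.33 on the log2 scale. Its replicate 1 values in control cells (1.75) and stimulated cells (3.88) were under the floor, so those sizes are uncertain. Rhag and Hemgn were under the floor on every replicate 1 array. Bpgm was also higher on replicate 2 in all 4 groups, by 0.0076 to 0.88. Any part of red cells in the values of Bpgm was not tested.

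Pyruvate kinase closes glycolysis, and lactate dehydrogenase turns its product into lactate. Pkm had 11.11 and 10.89 in stimulated cells with dorsomorphin, 12.51 and 12.42 in stimulated cells, 10.91 and 10.70 in unstimulated cells with dorsomorphin and 11.30 and 10.94 in control cells, with the stimulated arrays at least 1 log2 unit above every other. It rose 2.54-fold with stimulation (1.35 ± 0.24, adjusted p = 0.0166) and was 2.76-fold lower with dorsomorphin in stimulated cells (-1.46 ± 0.24, adjusted p = 0.0124). Ldha, the subunit associated with lactate formation, had 12.82 and 13.02, 14.20 and 14.30, 12.86 and 12.95 and 13.18 and 13.14 in that order. The 2 stimulated arrays were again highest, with 1.09 ± 0.21 for stimulation (adjusted p = 0.0193) and -1.33 ± 0.21 for dorsomorphin in stimulated cells (adjusted p = 0.0114). The other subunit, Ldhb, had 9.32 and 9.46, 9.31 and 9.22, 9.05 and 8.68 and 10.03 and 10.08. Control arrays were highest there: dorsomorphin alone lowered it (-1.19 ± 0.23, adjusted p = 0.0287), and stimulation gave -0.79 ± 0.23 with an adjusted p of 0.0541. When all probe sets were tested with limma, 2 others of Ldhb gave -1.31 (adjusted p = 0.0207) and -1.42 (0.0333) for stimulation. Its remaining one gave -0.73 (0.224).

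Lactate leaves through monocarboxylate transporters. Slc16a1, which encodes MCT1, had log2 signals of 9.16 and 10.67 in stimulated cells with dorsomorphin, 13.11 and 13.32 in stimulated cells, 9.18 and 10.001 in unstimulated cells with dorsomorphin and 9.78 and 9.96 in control cells. The stimulated arrays were more than 2 log2 units above all others. Stimulation raised it 10.2-fold (3.34 ± 0.54, adjusted p = 0.0146), and it was 9.86-fold lower with dorsomorphin in stimulated cells (-3.30 ± 0.54, adjusted p = 0.0129). With the mean of its probe sets, stimulation gave 2.70 with an adjusted p of 0.0547, but that mean includes a probe set under the floor on every array. Slc16a3, the MCT4 gene, lay between 2.41 and 6.07, near or under the floor, and passed in none.

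**Figure D3:**
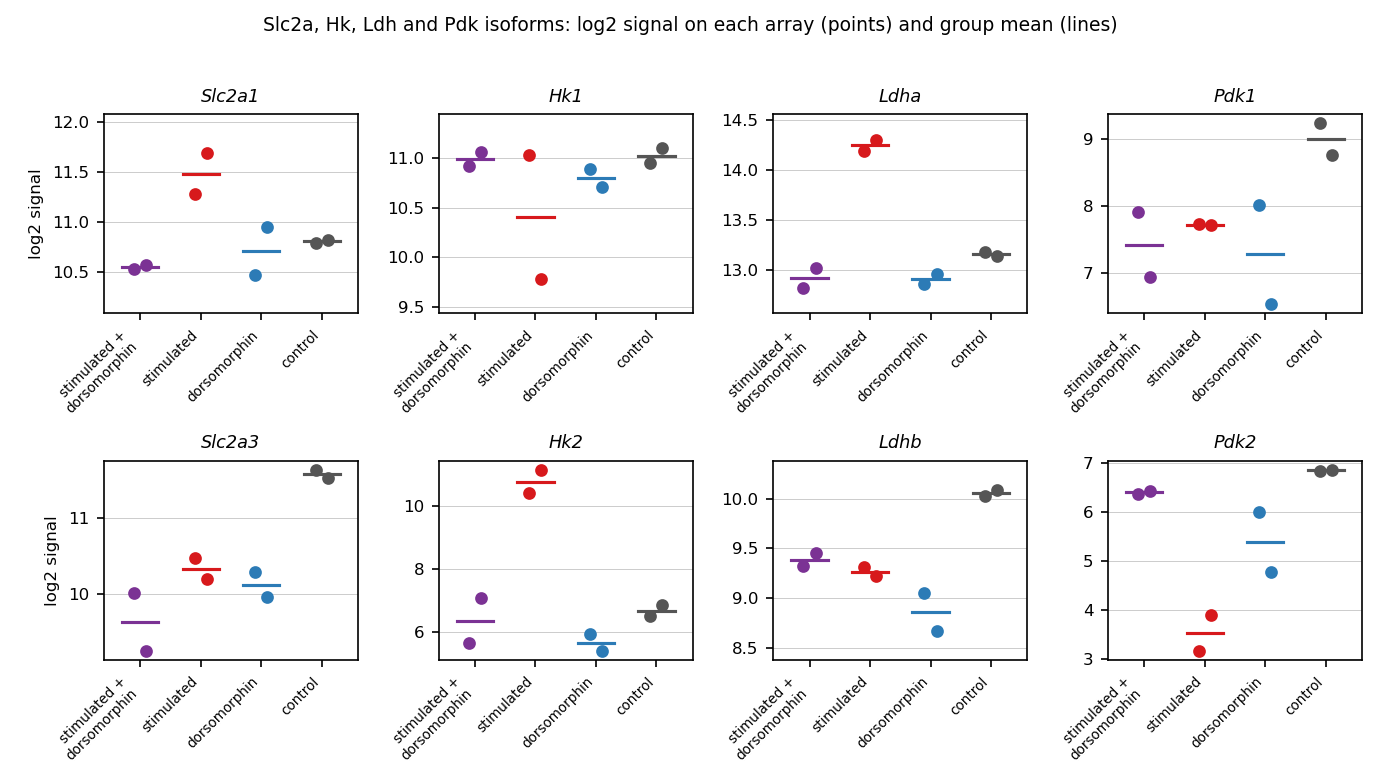
Log2 signal on each array for the Slc2a, Hk, Ldh and Pdk isoforms, by group, with a line at each group's mean and a separate axis range for each gene. Hk2 is high only on the 2 stimulated arrays, whereas Ldhb and Slc2a3 are highest on the 2 control arrays.

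Pyruvate dehydrogenase sends pyruvate to the mitochondria, and the Pdk kinases switch it off. Pdk2 had 6.37 and 6.44 in stimulated cells with dorsomorphin, 3.17 and 3.89 in stimulated cells, 6.00 and 4.77 in unstimulated cells with dorsomorphin and 6.85 and 6.87 in control cells. Both stimulated arrays were under the floor, so its change is a bound: stimulated cells were at least 3.11-fold lower than control cells (adjusted p = 0.0117), and stimulated cells with dorsomorphin at least 2.27-fold higher than stimulated cells (adjusted p = 0.012). Pdk1 had 7.91 and 6.94, 7.73 and 7.71, 8.02 and 6.54 and 9.23 and 8.76 on its brightest probe set and passed in none. Its second probe set gave 6.49 and 5.31, 8.16 and 8.35, 5.22 and 5.42, and 9.70 and 9.40 in the same order. On that set dorsomorphin gave -4.23 ± 0.42 in unstimulated cells (adjusted p = 0.0104) and -2.36 ± 0.42 in stimulated cells (adjusted p = 0.0164) when all 25886 probe sets were tested. A dimmer one gave -1.20 and -0.72, and neither passed. Pdk3 ranged from 7.96 to 9.27, and Pdha1, a catalytic subunit of the dehydrogenase, from 11.08 to 11.84, and neither passed.

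The oxidative arm of the pentose phosphate pathway makes NADPH. Pgls, the lactonase, had 9.85 and 9.59 in stimulated cells with dorsomorphin, 10.82 and 11.27 in stimulated cells, 9.56 and 8.96 in unstimulated cells with dorsomorphin and 10.68 and 10.89 in control cells. Stimulated and control arrays overlapped, and dorsomorphin lowered it in stimulated cells (-1.33 ± 0.31, adjusted p = 0.0318) and in unstimulated cells (-1.53 ± 0.31, adjusted p = 0.0325). Pgd, the NADPH-forming phosphogluconate dehydrogenase, had 10.58 and 10.69, 12.21 and 12.48, 10.61 and 10.31 and 11.07 and 10.99 in the same order, with the stimulated arrays highest. It rose with stimulation (1.31 ± 0.23, adjusted p = 0.0165) and was 3.27-fold lower with dorsomorphin in stimulated cells (-1.71 ± 0.23, adjusted p = 0.00835).

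The non-oxidative arm interconverts pentoses and glycolytic sugars. Rpia, which makes ribose phosphate, had 10.98 and 10.88 in stimulated cells with dorsomorphin, 12.01 and 12.20 in stimulated cells, 10.94 and 11.01 in unstimulated cells with dorsomorphin and 10.81 and 10.88 in control cells. Only the stimulated arrays exceeded 12, with 1.26 ± 0.20 for stimulation (adjusted p = 0.0146) and -1.17 ± 0.20 for dorsomorphin in stimulated cells (adjusted p = 0.0147). Rpe, the epimerase, had 10.95 and 11.42, 10.21 and 10.46, 10.89 and 11.37 and 9.91 and 9.93. Dorsomorphin alone raised it 2.31-fold (1.21 ± 0.28, adjusted p = 0.0462, or 0.0546 when all probe sets were tested). A second probe set went the same way (1.27, adjusted p = 0.0433 over all probe sets) and a dimmer one the opposite way. The mean of its probe sets gave 0.66 (adjusted p = 0.238). Stimulation gave 0.41 ± 0.28 (adjusted p = 0.344). Over all probe sets the second gave 1.17 ± 0.28 for stimulation (adjusted p = 0.0398) and the dimmer one -1.55 (0.147).

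Transketolase, which shuttles carbon units between the sugars, changed most with the compound in this arm. Tkt had 11.89 and 12.34 in stimulated cells with dorsomorphin, 14.49 and 14.55 in stimulated cells, 11.77 and 11.24 in unstimulated cells with dorsomorphin and 13.55 and 13.72 in control cells. Both dorsomorphin groups were below both groups without it, with no overlap. The fall was 5.29-fold in stimulated cells (-2.40 ± 0.28, adjusted p = 0.00715) and 4.38-fold in unstimulated cells (-2.13 ± 0.28, adjusted p = 0.014), and the difference between these effects was -0.27 ± 0.40 (95% interval -1.26 to 0.71). Stimulation gave 0.88 ± 0.28 with an adjusted p of 0.0719. When all probe sets were tested with limma, a second gave 1.57 ± 0.36 with 0.035, and a dimmer one gave 0.66 with 0.607. Taldo1, the transaldolase, ranged from 10.97 to 11.95 and passed in none.

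**Figure D4:**
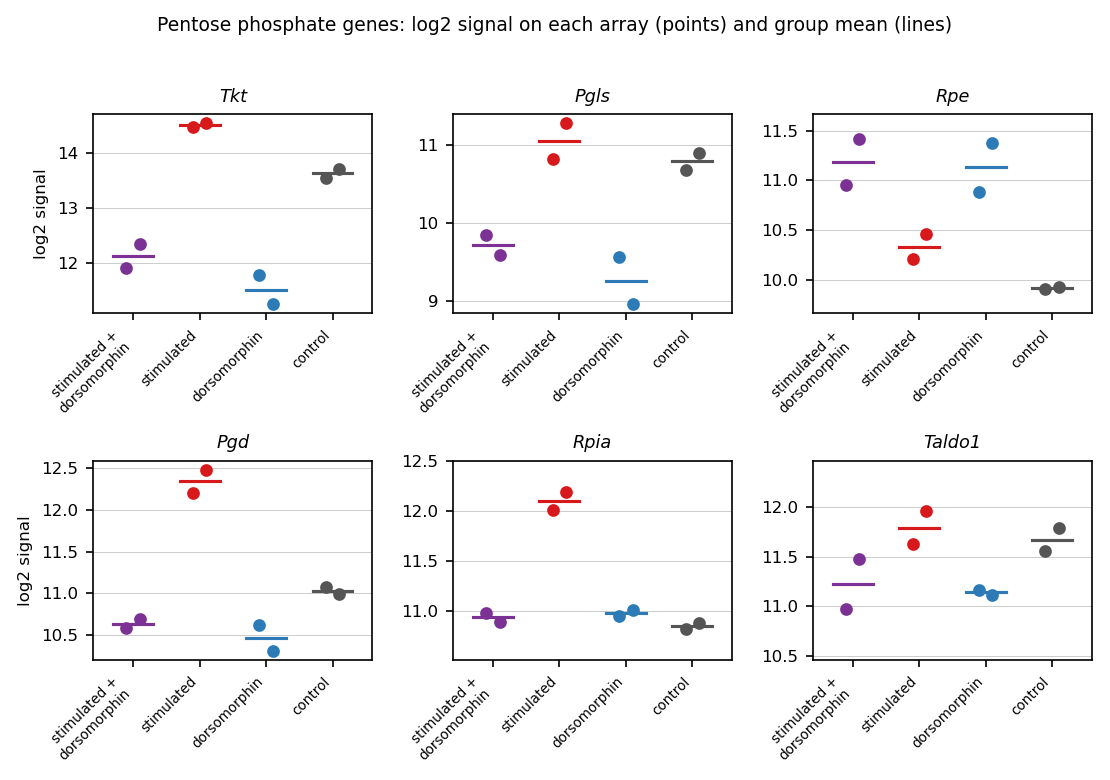
Log2 signal on each array for the pentose phosphate genes by group, with a line at each group's mean and a separate axis range for each gene. Tkt and Pgls are low in both dorsomorphin groups, and Pgd and Rpia are high only on the stimulated arrays.

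Hif1a had 13.52 and 13.91 in stimulated cells with dorsomorphin, 13.94 and 13.86 in stimulated cells, 13.55 and 14.10 in unstimulated cells with dorsomorphin and 12.88 and 12.84 in control cells on its brightest probe set. Control arrays were lowest, and stimulation raised it 2.05-fold (1.04 ± 0.28, adjusted p = 0.0449, or 0.0567 when all probe sets were tested), with -0.19 ± 0.28 for dorsomorphin in stimulated cells (adjusted p = 0.678). A second probe set had 10.29 and 10.68 in stimulated cells with dorsomorphin, 12.10 and 12.47 in stimulated cells, 10.28 and 10.64 in unstimulated cells with dorsomorphin and 10.68 and 10.78 in control cells. On it only the stimulated arrays were high, and dorsomorphin in stimulated cells gave -1.80 ± 0.28 (adjusted p = 0.0128 over all probe sets). A dimmer probe set gave -0.03 (limma adjusted p = 0.969). The brightest 2 probe sets thus differ on whether the compound lowers Hif1a in stimulated cells.

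**Figure D5:**
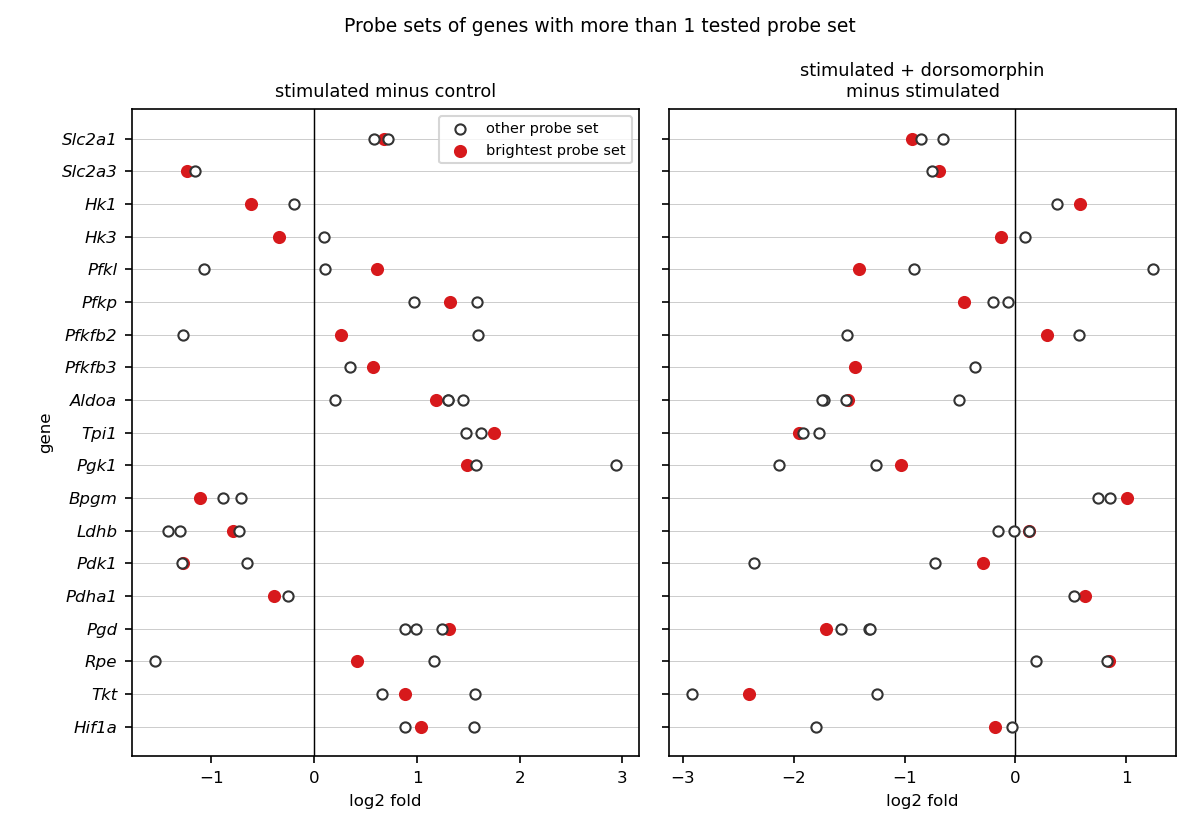
Log2 fold of every tested probe set for the 19 genes with more than 1, for stimulation (left) and for dorsomorphin in stimulated cells (right); filled points are the brightest probe set of a gene. Hif1a, Pdk1, Pfkl and Pfkfb2 show probe sets that differ in size or sign.

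Stimulation in the presence of dorsomorphin gave no gene past the threshold. Between stimulated cells with dorsomorphin and unstimulated cells with dorsomorphin, limma called 0 of 32 genes and 0 of 13983 in all (0%), and 0 of the 32 and 539 of all genes had an unadjusted p under 0.05. The 95% intervals still allowed sizeable changes for some genes. Hk2 gave 0.71 (-0.63 to 2.05) and Slc16a1 0.32 (-1.01 to 1.65) as log2 folds. For others they were narrower, with 0.01 for Ldha (-0.49 to 0.52), -0.05 for Rpia (-0.55 to 0.45) and -0.06 for Pgam1 (-0.80 to 0.67).

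Whether the compound changed the stimulation response was tested directly as an interaction. limma called 0 of 32 genes and 12 of 13983 in all (0.0858%; 0.0358% positive and 0.0501% negative), while 12 of the 32 and 3687 of all genes had an unadjusted p under 0.05. The smallest adjusted p was that of Pdk2 (0.0564), for which no size is given because both stimulated arrays were under the floor. Next were Pgam1 at -2.10 ± 0.42 (0.0711), Rpia at -1.31 ± 0.29 (0.0785) and Hk2 at -3.41 ± 0.77 (0.0804). The negative sign means a smaller rise with stimulation when the compound was present. This count depended on the fit, with 7 to 10 genes called under 3 other settings, where 12.2% to 19.4% of all tested genes were called.

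The following lists hold other genes of glucose metabolism, and their shares are to be read against the 8.98% of all tested genes that rose and the 14.4% that fell with stimulation. Of 18 further isoenzymes and transporters tested, limma called 0 as rising (2 at an unadjusted p under 0.05) and 2 as falling (11.1%): Slc2a9, and Emb, a membrane partner of monocarboxylate transporters. Emb had log2 signals of 13.96 and 13.61 in stimulated cells with dorsomorphin, 11.25 and 10.61 in stimulated cells, 14.08 and 14.29 in unstimulated cells with dorsomorphin and 13.89 and 13.67 in control cells. It was low only on the stimulated arrays, with -2.85 ± 0.30 for stimulation (adjusted p = 0.00851) and 2.85 ± 0.30 for dorsomorphin in stimulated cells (adjusted p = 0.00599). In that comparison Emb alone of the 18 rose, and Slc16a6 alone fell (-1.85 ± 0.42, adjusted p = 0.0294). Each is 5.56% of the list, against 9.71% of all tested genes that rose and 12.4% that fell. Among 10 genes for pyruvate entry into mitochondria, Pdp1 and Pdpr, both parts of the phosphatase that reactivates pyruvate dehydrogenase, fell with stimulation (-0.89 and -1.62). They rose with dorsomorphin in stimulated cells (0.86 and 2.11), and no other gene of that list passed in these comparisons. Each count is 20% of the list. Of all tested genes 14.4% fell with stimulation and 9.71% rose with dorsomorphin in stimulated cells. Both comparisons use the same 2 stimulated arrays.

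Of 15 further genes for pentose, ribose and NADPH supply, 2 fell with stimulation (13.3%, against 14.4% of all tested genes) and 3 with dorsomorphin alone (20%, against 11.1%). Idh1, a cytosolic source of NADPH, fell with stimulation (-3.35 ± 0.72, adjusted p = 0.026) and rose with dorsomorphin in stimulated cells (2.80 ± 0.72, adjusted p = 0.0417). Its stimulated arrays lay far apart (7.01 and 4.72). Replicate 2 was under the floor, and both sizes rest in part on it. Dera, the deoxyribose phosphate aldolase, fell with the compound in unstimulated cells (-1.29 ± 0.26, adjusted p = 0.034) and in stimulated cells (-1.43 ± 0.26, adjusted p = 0.0169). Gsr also fell with the compound in stimulated cells (-1.47 ± 0.26, adjusted p = 0.015). In that comparison 2 of the 15 fell (13.3%, against 12.4% of all tested genes) and 1 rose (6.67%, against 9.71%). Gluconeogenesis, glycogen and hexose side routes gave 5 falling genes of 24 with stimulation (20.8%), 3 with dorsomorphin alone (12.5%), and with the compound in stimulated cells 3 falling (12.5%, against 12.4% of all) and 1 rising. Gys1, muscle-type glycogen synthase, was 3.79 and 3.57 in stimulated cells with dorsomorphin, 6.99 and 6.17 in stimulated cells, 4.10 and 2.56 in unstimulated cells with dorsomorphin and 7.52 and 7.46 in control cells. Both dorsomorphin groups were under the floor, so it was at least 2.57-fold lower with the compound in stimulated cells (adjusted p = 0.0181) and at least 4.82-fold lower in unstimulated cells (adjusted p = 0.0139).

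Among 18 regulators of glycolytic genes tested, Myc and Bhlhe40 rose with stimulation and Epas1, which encodes HIF-2α, and Txnip fell. With dorsomorphin in stimulated cells, Usf1 alone rose (1.89 ± 0.31, limma adjusted p = 0.0124) and Myc alone fell. Each is 5.56% of the list, against 9.71% of all tested genes that rose and 12.4% that fell. Myc had 8.53 and 8.73 in stimulated cells with dorsomorphin, 13.48 and 13.55 in stimulated cells, 8.35 and 8.42 in unstimulated cells with dorsomorphin and 10.12 and 9.89 in control cells. Dorsomorphin groups were lowest and stimulated arrays highest. The fold was 3.51 ± 0.21 on the log2 scale for stimulation (adjusted p = 0.00784), -4.89 ± 0.21 for the compound in stimulated cells (adjusted p = 0.00313) and -1.62 ± 0.21 in unstimulated cells (adjusted p = 0.0139), and its interaction passed (-3.26 ± 0.30, adjusted p = 0.0492). Txnip, which restrains glucose uptake, had 13.32 and 12.73, 11.61 and 9.01, 13.19 and 13.01, and 14.07 and 13.83 in the same order. Its stimulated arrays were lowest but lay far apart, with -3.64 ± 0.80 for stimulation (adjusted p = 0.0275) and 2.72 ± 0.80 for dorsomorphin in stimulated cells (adjusted p = 0.062). Arnt, the partner subunit of Hif1a, and the oxygen-sensing genes Vhl and Egln3 passed in none of the comparisons.

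Of 14 tested targets of hypoxia-inducible factors outside glycolysis, limma called 0 as rising with stimulation (1 at an unadjusted p under 0.05; 8.98% of all tested genes rose) and 4 as falling (28.6%, against 14.4%). These were Mxi1, Ndrg1, Kdm3a and P4ha2, and P4ha2 had both stimulated arrays under the floor and was at least 1.07-fold lower. A difference of this list from the 32 genes was not tested. Mxi1, a Myc antagonist, Ndrg1 and Kdm3a, a histone demethylase, rose with dorsomorphin in stimulated cells, by 2.27, 1.61 and 1.83 on the log2 scale (21.4% of the list, against 9.71% of all tested genes). The lists of other genes are described by these counts only.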

How the data were processed

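The deposited values are intensities on a linear scale, and on every array their mean after trimming 2% at each end was 500. RMA and the affy package are named, per the submitters' processing notes, without versions; RMA output is on a log2 scale, which these values are not, and no source used here gives the actual step. The log2 of the deposited intensity was taken with no further normalization.

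Each gene was represented by its brightest single-symbol probe set and tested where 2 or more arrays were above a floor, the 40th percentile of the whole table (37.3 in signal, 5.22 in log2). All 8 arrays were fitted in 1 model with limma 3.58.1 in R 4.3.3 (4 residual and 1.90 prior degrees of freedom), with 5 contrasts, two-sided p-values and Benjamini-Hochberg adjustment over 13983 genes. Where both arrays of a group were under that floor, the fold is a bound, computed with each array's value raised to that floor where lower. An error after ± is limma's moderated standard error. Precision is limited by having 2 arrays in a group.

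The members, lists and tests were chosen with earlier results of these data known. All members may be named, with values on every array where past the threshold; of the other lists, up to 4 genes per list and contrast with the largest log2 fold, and always Myc, Txnip, Vhl, Egln3 and Arnt. The limma step was tested on simulated data. Alternatives were other scalings, filters, probe set rules and fits, each array left out, and the replicate number as a block; the labels do not say what a number marks. Testing each probe set on its own and adding Gapdh were chosen after seeing the data.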

Additional observations from a re-analysis of the deposited data

Results flagged for a closer look

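Gapdh, the glycolytic enzyme between triose phosphate isomerase and phosphoglycerate kinase, was read only from the array's control probe sets, which the comparisons leave out, and it is given here because a difference appeared in them. The 3′ control probe set had log2 signals of 13.14 and 13.55 in stimulated cells with dorsomorphin, 14.13 and 14.29 in stimulated cells, 13.07 and 13.10 in unstimulated cells with dorsomorphin and 13.24 and 13.08 in control cells. The 2 stimulated arrays were the highest. Stimulation gave a log2 fold of 1.05 ± 0.24 (limma adjusted p = 0.0287 with this probe set added to the genes tested). Dorsomorphin gave -0.86 ± 0.24 in stimulated cells (adjusted p = 0.0497) and -0.07 ± 0.24 in unstimulated cells (adjusted p = 0.874). The 5′ and middle control probe sets gave 1.00 and 1.25 for stimulation.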

How the results depend on the processing

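The counts of genes past the threshold were 12 for stimulation, 6 for dorsomorphin in unstimulated cells, 14 for dorsomorphin in stimulated cells, 0 for stimulation with dorsomorphin and 0 for the interaction. For dorsomorphin in unstimulated cells the count was 1 with arrays centred on their medians, 1 with no filter on low values and 1 when only the 4 arrays of the comparison were fitted. Fits of only 4 arrays also gave 7 for stimulation and 0 for dorsomorphin in stimulated cells (limma; 4040 of all genes at an unadjusted p under 0.05). The interaction count was 8 with a 60th percentile filter, 7 with low values raised to the floor and 10 when limma's fit was robust with a variance trend. Leaving out each array in turn gave 0 to 11 genes for stimulation, 0 to 5 for dorsomorphin in unstimulated cells, 4 to 13 for dorsomorphin in stimulated cells, 0 to 0 for stimulation with dorsomorphin and 0 to 1 for the interaction. The cause of these shifts was not tested, beyond the fewer arrays or genes that some settings use. Of the 32 pairs of gene and comparison past the threshold, 0 of 350 values under other settings and 0 of 256 without 1 array changed sign. Many of these values could not change sign. Settings that alter only the filter, the fit or the genes tested leave the fold as it was, and so does leaving out an array outside the comparison. The counts of sign are therefore no test of direction. Under other settings 291 of the 350 remained past the threshold. Same-numbered arrays deviated together only weakly over the 6 pairs of groups (correlations of 0.0687 to 0.178), and 2 numbers cannot establish pairing. These correlations do not register a shift common to all genes. Replicate 2 had the lower median signal in all 4 groups. It was 58.7 against 72.9 in stimulated cells with dorsomorphin and 45.4 against 66 in stimulated cells. In unstimulated cells with dorsomorphin it was 56 against 64.7, and in control cells 65.9 against 74.5. With the replicate block the counts were 15, 7, 17, 0 and 0. It ended no call, and it added Pfkp, Aldoa and Bpgm for stimulation, Pfkl for dorsomorphin in unstimulated cells, and Slc2a1, Pgk1 and Rpe for dorsomorphin in stimulated cells. Replicate 2 was higher than replicate 1 in all 4 groups for 9 of the 32 genes, among them Aldoa, Tpi1 and Pgk1, and lower in all 4 for 4 of them. The direction was the same in all 4 groups for 40.6% of the 32 genes and 29.9% of all tested genes. For the 10 erythroid and platelet markers it was 70%, with replicate 2 higher for 4 and replicate 1 higher for 3. For stimulation the median log2 fold of the 32 genes was 0.56, or 0.91 with median centring and 0.81 with cyclic loess, and that of all genes was -0.27, 0.10 and 0.00, so the 32 genes stayed above all genes under these 3 scalings. The split of all genes for stimulation was 1256 higher and 2013 lower, against 1018 and 1045 with median centring and 1600 and 1593 with cyclic loess. For dorsomorphin in stimulated cells it was 1358 higher and 1738 lower, against 684 and 1531, and 1134 and 2163. With no detection calls, the floor is a working limit, and genes near it, such as Pdk2, Pfkm and Slc16a3, are the least certain.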
